A study of Mus musculus with 16 samples.

Results

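Senescence regulators and secreted factors are described here as 9 genes, taken by name from the 55356 gene rows of a count table of mouse arteries. They are the cyclin-dependent kinase (CDK) inhibitor genes Cdkn1a, Cdkn2a, Cdkn2b and Cdkn2c, the p53 pathway genes Trp53 and Mdm2, the retinoblastoma gene Rb1, the lamin gene Lmnb1 and the secreted factor gene Gdf15. All 9 had a row, and 7 passed the filter on low counts and were tested among 10634 genes. Cdkn2a and Cdkn2b did not pass, as too few libraries reached the filter's minimum level. RNA was sequenced from brachiocephalic artery sections of 16 female mice, 1 library per mouse and 4 mice in each group. The groups were Apoe-/-Mif-/- mice on a Western-type diet for 42 weeks, Apoe-/- mice on it for 42 weeks, Apoe-/-Mif-/- mice on it for 24 weeks and Apoe-/- mice on it for 24 weeks. All 16 mice are labelled Apoe-/-, and the product of Apoe clears lipoprotein remnants from plasma. All ate the diet (0.2% cholesterol and 21.2% fat) from 6 weeks of age, so diet duration and age cannot be told apart. No chow-fed or Apoe-sufficient group was analysed here. The cell type is labelled as mixed, since lysates of 3 to 4 frozen sections, each 5 µm thick, were pooled per mouse. In such bulk samples fewer cells of a type and less RNA per cell cannot be told apart.

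A senescent cell has left the cell cycle for good while staying alive. Damage stabilises the transcription factor p53, which switches on Cdkn1a, encoding the CDK inhibitor p21, and Mdm2, encoding the ligase that marks p53 for destruction. The INK4 proteins p16 (Cdkn2a), p15 (Cdkn2b) and p18 (Cdkn2c) block CDK4 and CDK6, and both arms keep the retinoblastoma protein in the form that silences E2F targets. Cells in this state often lose lamin B1 and secrete cytokines, proteases and growth factors. Smooth muscle cells, endothelial cells and lipid-laden macrophages with such features have been described in plaques. MIF, the cytokine whose gene was deleted in 8 of the mice, is known in cultured cells as a brake on p53 activity.

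Library totals ran from 378066 counts (Apoe-/- 42 weeks, replicate 1) to 8649518 counts (Apoe-/- 24 weeks, replicate 3). Levels are given as CPM, the usual scaling of counts to a common library size, from each library's total over the tested genes and its TMM factor. A count of 3 was worth between 0.327 and 6.32 CPM, the floor below which a level could not be told from 0; the floor covers counting error only, since the reads carry no molecular identifiers. Mif averaged 9.35 ± 5.06 CPM in Apoe-/-Mif-/- and 160 ± 116 CPM in Apoe-/- arteries at 42 weeks, and 12.8 ± 6.69 CPM in Apoe-/-Mif-/- and 141 ± 33.5 CPM in Apoe-/- arteries at 24 weeks (SD, n = 4 each). All 8 libraries of Mif-deleted mice, at 2.395 to 19.9 CPM, lay below the other 8, but replicate 1 of the Apoe-/- mice at 42 weeks, the shallowest library, had only 23.2 CPM (11 counts) and the other 7 had 105 to 301 CPM. Apoe itself was counted in every library, at 2.58 to 194 CPM in Apoe-/-Mif-/- and 4.73 to 1127 CPM in Apoe-/- mice at 42 weeks, and at 3.08 to 111 CPM in Apoe-/-Mif-/- and 6.88 to 91.0 CPM in Apoe-/- mice at 24 weeks. The highest, replicate 4 of the Apoe-/- mice at 42 weeks, is also the highest in Gdf15; which part of the gene these counts cover was not tested. Arterial markers were found in every library: 10 smooth muscle genes summed to 900 to 17320 CPM, 8 endothelial genes to 137 to 4465 CPM and 16 macrophage genes to 3081 to 52840 CPM. Columns of the 4 Apoe-/-Mif-/- libraries at 24 weeks carry the letter C and the other 12 the letter B, so letter and group cannot be told apart in any comparison that includes them. In these 4 libraries 6 heart muscle genes, none of them at 0, summed to 1270 to 4501 CPM, against 134 to 446 CPM in Apoe-/- mice at 24 weeks. In Apoe-/-Mif-/- mice at 42 weeks that sum was 228 to 1031 CPM.

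Cdkn1a had the highest level of the 9 genes in most arteries. Per kilobase of annotated exon it had a median of 58.9 CPM and a range of 21.95 to 208 CPM over the 16 libraries, and it was the highest of the 9 in 12 of them. Gdf15, Trp53 and Cdkn2c were the highest in the other 4 libraries, with medians of 10.1, 9.985 and 4.87 CPM per kilobase. Mdm2 had a median of 2.64 CPM per kilobase. Cdkn2b, Lmnb1, Rb1 and Cdkn2a closed the order with medians of 0.4495, 0.163, 0.0614 and 0 CPM per kilobase. The range of every gene over libraries overlapped those of its neighbours in this order, and differences between neighbours within libraries were not tested.

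**Figure D1:**
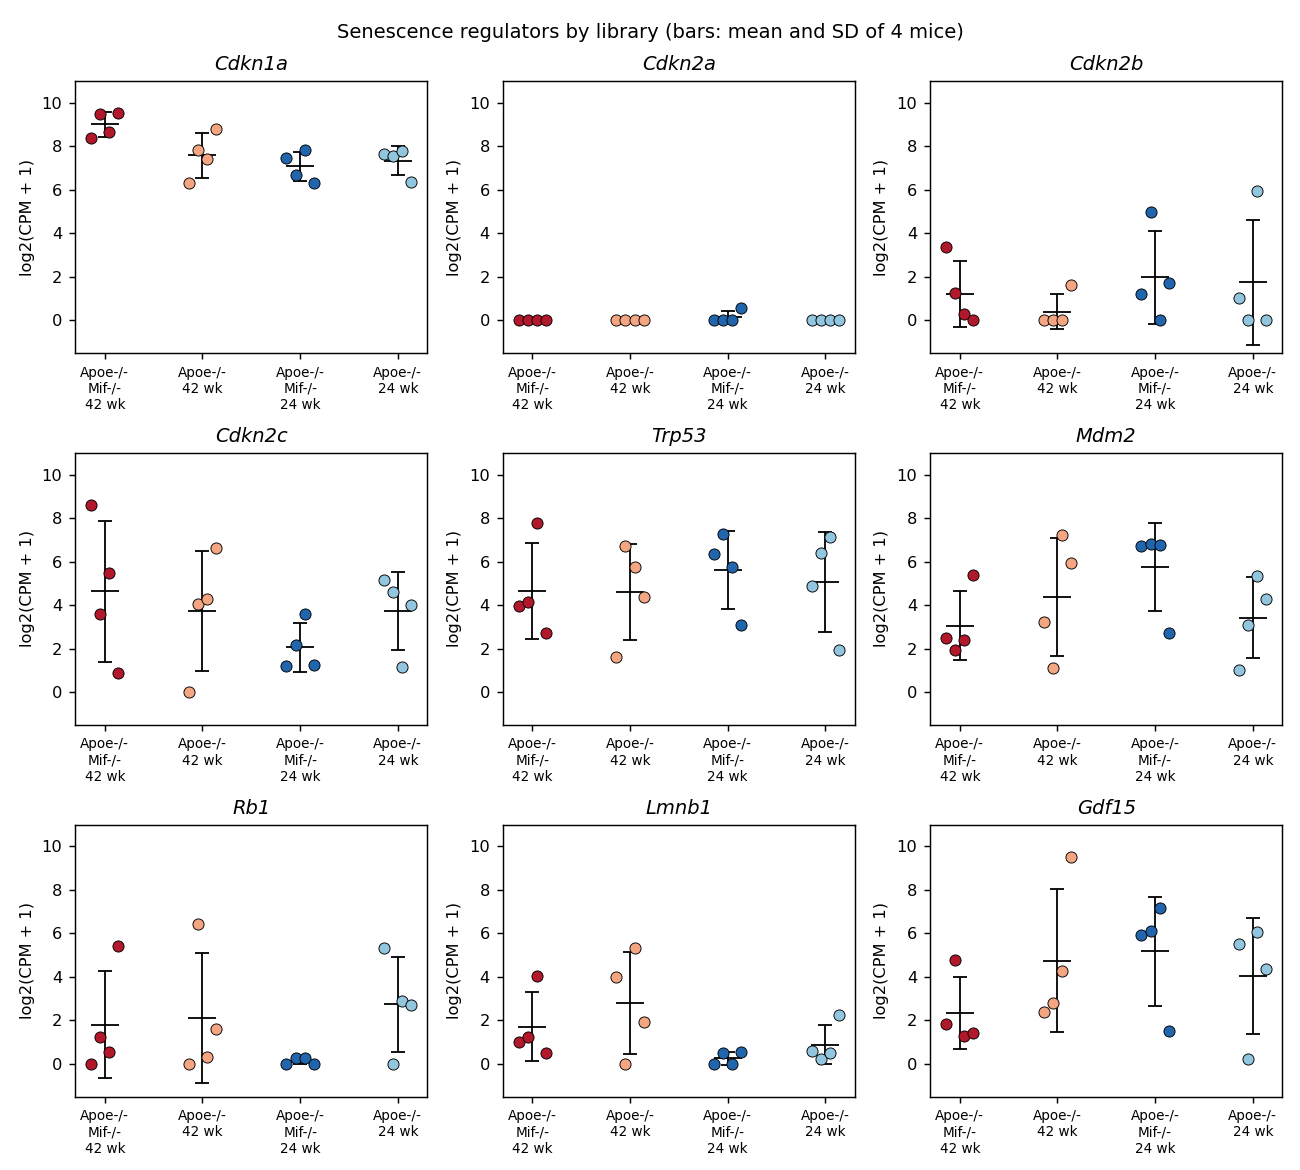
Level of each of the 9 genes in every library, as log2(CPM + 1) on the vertical axis, with the 4 groups along the horizontal axis; points are mice and bars are the mean and SD of 4 mice. Cdkn1a lies higher in all 4 Apoe-/-Mif-/- arteries at 42 weeks than in all 4 at 24 weeks, Cdkn2a is at or near 0 in all 16 libraries, and most other genes scatter widely within a group.

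Most of these genes drew their counts from few libraries. The highest library held 61.05% of the summed CPM of Gdf15, 58.3% of that of Cdkn2c, 48.8% for Lmnb1 and 46.8% for Rb1. The shares were lower for Trp53 (22.5%), Mdm2 (22.1%) and Cdkn1a (16.9%). The median share over the 10634 tested genes was 32.2%, and 18.7% of those genes had a share of 50% or more, as 2 of the 7 tested members did. Concentration in 1 library was therefore common among all genes of this low-input assay. On the log2(CPM + 1) scale the SD over libraries was 1.03 for Cdkn1a and 2.57 for Gdf15, the extremes among the 7, against a median of 1.83 over tested genes.

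**Figure D2:**
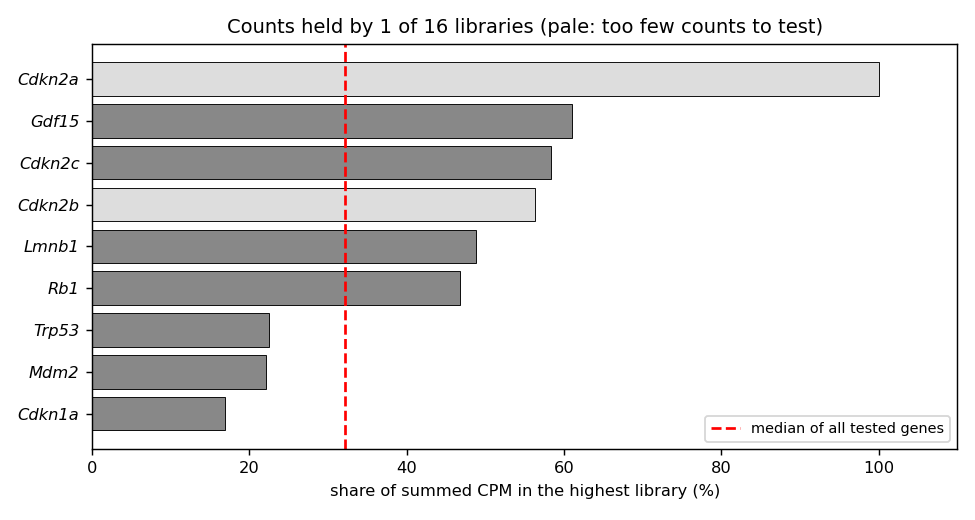
Share of each gene's CPM, summed over 16 libraries, that came from its highest library (horizontal axis, percent). Pale bars are the 2 genes not tested, for which too few libraries reached the filter's minimum level. The dashed line is the median of all tested genes, 32.2%. Cdkn1a, Mdm2 and Trp53 lie left of the line and the other 6 genes right of it.

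None of the 7 tested genes passed edgeR's quasi-likelihood test at an adjusted p of 0.05 in any of the 7 comparisons, a threshold that few genes of the whole table passed. Mif deletion gave calls for 0.047% of tested genes at 24 weeks and 0% at 42 weeks. Duration gave calls for 0.122% in Apoe-/-Mif-/- and 0% in Apoe-/- mice. Averaged over the other factor, Mif deletion gave calls for 0% and duration for 0.0376%, and the interaction of genotype with duration gave calls for 0.686%. At an unadjusted p under 0.05 the members numbered 1 of 7 for Mif deletion at 24 weeks, beside 7.33% of all genes, and 1 at 42 weeks, beside 17.3%. They numbered 4 of 7 for duration in Apoe-/-Mif-/- mice, beside 13.1% of all genes, and 0 for duration in Apoe-/- mice, beside 12.2%. Averaged, they numbered 1 for Mif deletion (13% of all genes) and 4 for duration (13.6%), with 2 for the interaction (14.2%). limma, on voom weights or on the deposited variance-stabilised values, called no member that it tested in any comparison (7 with voom, and 6 in the variance-stabilised table, without Lmnb1). DESeq2 called Cdkn1a and Cdkn2c for duration in Apoe-/-Mif-/- mice, beside 5.06% of all genes, and Cdkn1a, Cdkn2c and Lmnb1 for duration averaged over genotypes, beside 5% of all genes. It called no member for Mif deletion at 24 weeks (2.37% of all genes), at 42 weeks (7.51%) or averaged (2.95%), for duration in Apoe-/- mice (3.36%) or for the interaction (4.84%).

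**Figure D3:**
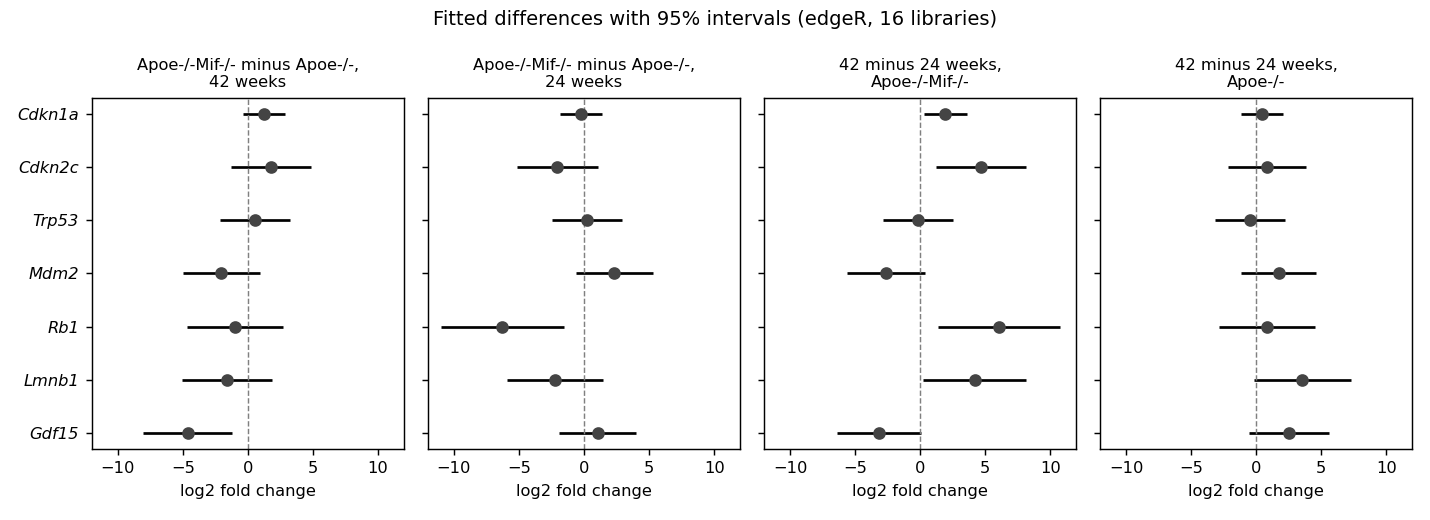
Log2 fold change of the 7 tested genes (horizontal axis) with its 95% interval in the 4 comparisons of groups, each as the first-named condition minus the second. The intervals were derived from the F statistic of edgeR's test, so one clear of 0 repeats an unadjusted p under 0.05. Intervals clear of 0 are those of Cdkn1a, Cdkn2c, Rb1 and Lmnb1 for duration in Apoe-/-Mif-/- mice (above 0), of Gdf15 for Mif deletion at 42 weeks and of Rb1 at 24 weeks (below 0), and none of the points passed the test after adjustment over 10634 genes.

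Cdkn1a encodes p21, which inhibits CDK2 complexes and is among the best known targets of p53. The RefSeq promoter table, on GRCm38.p6, gives 2 start sites for it, and both windows (250 bases before to 50 after the start) are shown because Cdkn1a carries the clearest pattern by group. Capitals mark the letters CATGNNNNNNCATG, the core of a pair of adjoining p53 half-sites, which read the same on both strands.
Cdkn1a upstream start, chr17:29090729-29091028, plus strand: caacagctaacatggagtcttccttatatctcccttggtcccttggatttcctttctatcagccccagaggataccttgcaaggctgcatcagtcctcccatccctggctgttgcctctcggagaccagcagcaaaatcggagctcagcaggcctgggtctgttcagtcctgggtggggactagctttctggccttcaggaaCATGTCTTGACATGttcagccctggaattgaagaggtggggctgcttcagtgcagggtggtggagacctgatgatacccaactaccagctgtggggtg
Cdkn1a downstream start, chr17:29093519-29093818, plus strand: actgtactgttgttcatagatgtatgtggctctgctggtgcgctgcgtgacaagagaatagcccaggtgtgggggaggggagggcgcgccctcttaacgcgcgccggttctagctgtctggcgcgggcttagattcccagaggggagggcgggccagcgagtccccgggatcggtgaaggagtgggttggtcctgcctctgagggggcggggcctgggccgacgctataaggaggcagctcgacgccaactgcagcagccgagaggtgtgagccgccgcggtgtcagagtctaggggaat
The match ended 35 bases before the upstream start. It was the 1 match in the 11 windows that the table holds for 7 of the 9 genes, and 0.712% of all 32851 windows of that length held the motif. A match is a string of letters and not a measured binding site, and the counts do not tell transcripts from the 2 starts apart.

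Cdkn1a was higher in every Apoe-/-Mif-/- artery at 42 weeks than in every Apoe-/-Mif-/- artery at 24 weeks. The 42-week arteries had 337, 713, 403 and 739 CPM, and the 24-week arteries had 173.5, 102.5, 226 and 79.1 CPM. The means were 548 ± 208 CPM at 42 weeks and 145 ± 67.2 CPM at 24 weeks (SD, n = 4 each), a log2 difference of 1.91 ± 0.82 (SE) with a 95% interval of 0.26 to 3.57. After adjustment over all genes edgeR did not call it (adjusted p = 0.321, and 0.174 to 0.712 under the other edgeR and limma settings). DESeq2 gave a log2 difference of 2.55 and called it (adjusted p = 0.0227). Cdkn1a was the 1 member of 7 whose groups did not overlap in this comparison, in which 4.38% of all tested genes did not overlap and 1.35% did so with the 42-week group higher.

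Other measures differed in the same comparison. The mitochondrial share of counts was 6.01, 7.30, 1.94 and 8.64% in the 42-week arteries and 1.179, 1.20, 1.08 and 3.065% in the 24-week arteries of Apoe-/-Mif-/- mice, and its part in the result was not tested. White adipocyte markers (13 genes, 0 to 1 of them at 0 in a 42-week library and 1 to 2 in a 24-week library) summed to 505 to 34340 CPM at 42 weeks and 283 to 1224 CPM at 24 weeks in Apoe-/-Mif-/- mice. All 12 tested markers of this list were higher at 42 weeks (median log2 4.9, against 0.124 over all genes). Of the 13 genes that edgeR called in this comparison, 3 were among them. In a model that held the white adipocyte score the log2 difference of Cdkn1a was 1.65 (edgeR adjusted p = 0.712), and with the macrophage score instead it was 1.96 (edgeR adjusted p = 0.355). The heart muscle sums given above did not overlap between these 2 groups and were the lower ones at 42 weeks, and their part in the result was not tested. Leaving out 1 library at a time gave 1.81 to 2.19.

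In Apoe-/- mice Cdkn1a did not separate by duration. Its level was 78.0, 226, 172 and 443 CPM in the 4 Apoe-/- arteries at 42 weeks and 201.5, 188, 217 and 80.0 CPM in the 4 at 24 weeks. Each of these groups held 1 low artery, and the groups overlapped over most of their range. The log2 difference was 0.42 with an interval of -1.185 to 2.03 (edgeR adjusted p = 0.882), and it was -0.09 without replicate 4 of the 42-week mice. Mif deletion gave a log2 difference of 1.25 at 42 weeks, with an interval of -0.37 to 2.88 (edgeR adjusted p = 0.4115), and 0.95 without the shallow replicate 1 of the Apoe-/- mice. At 24 weeks Mif deletion gave -0.24, with an interval of -1.85 to 1.36 (edgeR adjusted p = 0.983), and -0.54 to -0.08 with 1 library left out. The effect of Mif deletion on Cdkn1a was not shown to differ between durations (interaction log2 1.49, interval -0.79 to 3.77, edgeR adjusted p = 0.58).

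Among the INK4 genes, Cdkn2a and Cdkn2b were at or near 0 in most arteries. The row of Cdkn2a, which covers transcripts for p16 and for the p53 activator ARF, had 1 count in all, in replicate 4 of the Apoe-/-Mif-/- mice at 24 weeks (0.463 CPM), and 0 in the other 15 libraries. Its level was thus below the floor in all 16 libraries, and no comparison was possible at this depth. Cdkn2b, its neighbour on chromosome 4 and a gene that TGF-beta induces, had 745 counts in 9 libraries. Of these, 566 were in replicate 3 of the Apoe-/- mice at 24 weeks (61.6 CPM) and 147 in replicate 2 of the Apoe-/-Mif-/- mice at 24 weeks (30.15 CPM). The next highest level of Cdkn2b was 9.25 CPM, in replicate 1 of the Apoe-/-Mif-/- mice at 42 weeks. Group sums were 20 counts in Apoe-/-Mif-/- and 3 counts in Apoe-/- mice at 42 weeks, and 154 counts in Apoe-/-Mif-/- and 568 counts in Apoe-/- mice at 24 weeks.

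Cdkn2c, which encodes p18, was uneven in 3 groups and low throughout the fourth. At 42 weeks it had 389, 11.1, 43.6 and 0.860 CPM in Apoe-/-Mif-/- arteries and 0, 15.7, 18.2 and 97.7 CPM in Apoe-/- arteries. At 24 weeks it had 1.31, 3.49, 11.2 and 1.39 CPM in Apoe-/-Mif-/- arteries and 34.3, 23.6, 1.20 and 15.00 CPM in Apoe-/- arteries. The Apoe-/-Mif-/- arteries at 24 weeks were all low, yet they overlapped with every other group. Duration gave a log2 difference of 4.65 ± 1.71 (SE) in Apoe-/-Mif-/- mice, with an interval of 1.18 to 8.11 (edgeR adjusted p = 0.256). DESeq2 gave 5.50 and called it (adjusted p = 0.0151). Without replicate 1 of the 42-week mice edgeR gave 2.01. In Apoe-/- mice the log2 difference by duration was 0.835 (edgeR adjusted p = 0.872), and it was -0.65 without replicate 4 of the 42-week mice. Mif deletion gave 1.75 at 42 weeks (edgeR adjusted p = 0.566), which became -1.03 without replicate 1 of the Apoe-/-Mif-/- mice, and -2.06 at 24 weeks (edgeR adjusted p = 0.875), which became -3.10 without replicate 3 of the Apoe-/-Mif-/- mice.

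Trp53 encodes p53, whose activity is set largely by the stability of the protein. At 42 weeks its RNA stood at 14.4, 16.7, 220 and 5.59 CPM in Apoe-/-Mif-/- arteries and 2.11, 105, 52.5 and 19.5 CPM in Apoe-/- arteries. At 24 weeks it stood at 81.2, 151, 52.96 and 7.40 CPM in Apoe-/-Mif-/- arteries and 28.3, 83.7, 137 and 2.81 CPM in Apoe-/- arteries. Each group held high and low arteries side by side, and all groups overlapped. The group means, 64.2 ± 104 CPM in Apoe-/-Mif-/- and 44.8 ± 45.2 CPM in Apoe-/- mice at 42 weeks, and 73.2 ± 60.2 CPM in Apoe-/-Mif-/- and 63.1 ± 60.0 CPM in Apoe-/- mice at 24 weeks, lay closer together than mice of 1 group (SD, n = 4 each). Mif deletion gave log2 differences of 0.52 at 42 weeks and 0.21 at 24 weeks (edgeR adjusted p = 0.881 and 0.990). Duration gave -0.18 in Apoe-/-Mif-/- and -0.485 in Apoe-/- mice (edgeR adjusted p = 0.969 and 0.923). Each of these 4 signs turned when some single library was left out, with values of -2.61 to 1.24 over the 4 comparisons. Trp53 lies head to head with Wrap53 on the opposite strand, and reads from their shared stretch cannot be told apart in a library without strand.

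Mdm2 encodes the ubiquitin ligase that degrades p53 and is itself switched on by p53. Its window in the RefSeq table (GRCm38.p6) is shown beside those of Cdkn1a because p53 is known to act on both genes. The motif did not occur in these letters. Only that string was searched for, and only in this window, so its absence does not exclude a p53 site in or outside the window.
Mdm2, chr10:117710709-117711008, minus strand: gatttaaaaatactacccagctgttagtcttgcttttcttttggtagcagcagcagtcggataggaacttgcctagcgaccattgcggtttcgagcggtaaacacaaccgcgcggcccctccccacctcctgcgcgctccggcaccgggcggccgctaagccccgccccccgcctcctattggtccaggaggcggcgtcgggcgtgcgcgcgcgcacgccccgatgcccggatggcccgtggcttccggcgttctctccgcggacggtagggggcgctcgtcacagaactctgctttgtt
At 42 weeks Mdm2 had 4.62, 2.79, 4.31 and 40.85 CPM in Apoe-/-Mif-/- arteries and 8.43, 1.182, 148 and 60.0 CPM in Apoe-/- arteries. At 24 weeks it had 105, 113, 109 and 5.55 CPM in Apoe-/-Mif-/- arteries and 1.01, 7.60, 39.2 and 18.4 CPM in Apoe-/- arteries. In Apoe-/-Mif-/- mice at 24 weeks 3 arteries lay close together at the upper end of the range and replicate 4 lay far below them. These 4 libraries are also those with the high heart muscle sums, whose part in the result was not tested. Mif deletion gave a log2 difference of -2.04 at 42 weeks (interval -4.99 to 0.91, edgeR adjusted p = 0.468) and 2.32 at 24 weeks (interval -0.65 to 5.29, edgeR adjusted p = 0.83). At 42 weeks it became -0.80 without replicate 3 of the Apoe-/- mice and -3.74 without replicate 4 of the Apoe-/-Mif-/- mice. The difference between these effects was -4.36, with an interval of -8.55 to -0.17, and edgeR did not call it after adjustment (adjusted p = 0.327). Duration gave -2.645 in Apoe-/-Mif-/- and 1.71 in Apoe-/- mice (edgeR adjusted p = 0.452 and 0.673), which became -4.27 without replicate 4 of the Apoe-/-Mif-/- mice at 42 weeks and 0.47 without replicate 3 of the Apoe-/- mice at 42 weeks.

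Rb1 encodes the retinoblastoma protein, which holds E2F factors silent until CDKs phosphorylate it. At 42 weeks it had 0, 1.39, 0.479 and 41.7 CPM in Apoe-/-Mif-/- arteries and 0, 86.0, 0.260 and 2.09 CPM in Apoe-/- arteries. At 24 weeks it had 0, 0.205, 0.203 and 0 CPM in Apoe-/-Mif-/- arteries and 39.4, 0, 6.42 and 5.63 CPM in Apoe-/- arteries. The Apoe-/-Mif-/- arteries at 24 weeks held 2 Rb1 counts in all and the Apoe-/- arteries 155, but 1 of the Apoe-/- arteries had 0 and the groups overlapped. The pooled level in Apoe-/-Mif-/- was 0.0194 times that in Apoe-/- arteries at 24 weeks, with an exact binomial 95% interval of 0.00233 to 0.0713 that covers counting error only. White adipocyte markers (13 genes, 2 called lower by edgeR) summed to 283 to 1224 CPM in Apoe-/-Mif-/- and 264 to 32930 CPM in Apoe-/- mice at 24 weeks. Brown adipocyte markers (6 genes) summed to 50.7 to 127 CPM in Apoe-/-Mif-/- and 37.65 to 10010 CPM in Apoe-/- mice, and fast skeletal muscle markers (9 genes, 3 called lower by edgeR) to 10.1 to 60.9 CPM in Apoe-/-Mif-/- and 10.8 to 5036 CPM in Apoe-/- mice. Both sums were highest in replicate 1 of the Apoe-/- mice, which also had the highest Rb1 of that group, and their part in the result was not tested. The fitted log2 difference of Rb1 was -6.28 ± 2.33 (SE), a size that depends on the prior count (edgeR adjusted p = 0.409), and it was -3.49 in a model that held the white adipocyte score (edgeR adjusted p = 0.999). Duration in Apoe-/-Mif-/- mice gave 6.065 against the same 2 counts (edgeR adjusted p = 0.272), and 1.79 without replicate 4 of the 42-week mice. Mif deletion at 42 weeks gave -1.02 (edgeR adjusted p = 0.814), which became 3.69 without replicate 2 of the Apoe-/- mice. Duration in Apoe-/- mice gave 0.80 (edgeR adjusted p = 0.905), which became -3.80 without the same library.

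Lmnb1 encodes lamin B1, a filament of the inner nuclear envelope whose loss is a common mark of senescent cells in culture. At 42 weeks its level was 1.03, 1.39, 15.6 and 0.430 CPM in Apoe-/-Mif-/- arteries and 14.75, 0, 39.8 and 2.79 CPM in Apoe-/- arteries. At 24 weeks its level was 0, 0.410, 0 and 0.463 CPM in Apoe-/-Mif-/- arteries and 0.505, 0.169, 0.4355 and 3.75 CPM in Apoe-/- arteries. Counts were few at 24 weeks, with 3 in Apoe-/-Mif-/- and 18 in Apoe-/- arteries, and more at 42 weeks, with 69 in Apoe-/-Mif-/- and 164 in Apoe-/- arteries. Averaged over genotypes the log2 difference of 42 minus 24 weeks was 3.86 ± 1.34 (SE), with an interval of 1.14 to 6.58 (edgeR adjusted p = 0.200, DESeq2 adjusted p = 0.0259). Within genotypes it was 4.18 in Apoe-/-Mif-/- (edgeR adjusted p = 0.352) and 3.54 in Apoe-/- mice (edgeR adjusted p = 0.435), and the groups overlapped in both. Without replicate 3 of the 42-week mice of that genotype these became 1.84 in Apoe-/-Mif-/- and 2.17 in Apoe-/- mice. Mif deletion gave -1.60 at 42 weeks (edgeR adjusted p = 0.655), with values of -3.94 to -0.225 when replicate 3 of either genotype was left out. At 24 weeks it gave -2.24 (edgeR adjusted p = 0.906), which became -0.61 without replicate 4 of the Apoe-/- mice. In Apoe-/-Mif-/- mice the pooled level at 42 weeks was 33.9 times that at 24 weeks, with an exact binomial 95% interval of 11.1 to 168 for counting error only, and 65 of the 69 counts at 42 weeks were in replicate 3.

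Gdf15 encodes a hormone of the TGF-beta family that cells release under stress, macrophages among them. At 42 weeks it had 2.57, 26.5, 1.44 and 1.72 CPM in Apoe-/-Mif-/- arteries and 4.215, 5.91, 18.2 and 729 CPM in Apoe-/- arteries. At 24 weeks it had 59.6, 68.7, 143 and 1.85 CPM in Apoe-/-Mif-/- arteries and 44.4, 0.169, 67.1 and 19.4 CPM in Apoe-/- arteries. A single Apoe-/- artery at 42 weeks, replicate 4, exceeded all others, and every pair of groups overlapped. Mif deletion at 42 weeks gave a log2 difference of -4.62 ± 1.69 (SE), with an interval of -8.05 to -1.20 (edgeR adjusted p = 0.183). Without that artery it gave -0.24 (edgeR adjusted p = 0.960). At 24 weeks Mif deletion gave 1.06 (interval -1.89 to 4.01, edgeR adjusted p = 0.965), and 0.40 to 1.70 with 1 library left out. The interaction was -5.69, with an interval of -10.1 to -1.23 (edgeR adjusted p = 0.218), and -1.24 without the same artery. Duration gave -3.16 in Apoe-/-Mif-/- mice (edgeR adjusted p = 0.391), and -4.99 without replicate 2 of the 42-week mice. In Apoe-/- mice duration gave 2.53 (edgeR adjusted p = 0.521), which became -1.79 without replicate 4 of the 42-week mice.

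Of the 7 tested members, 3 under Mif deletion had a log2 difference above 0 at 42 weeks (51.8% of all genes) and 3 at 24 weeks (45.1%). For duration 4 of 7 lay above 0 in Apoe-/-Mif-/- mice (52.9% of all genes) and 6 of 7 in Apoe-/- mice (47.3%). The median of the 7 was -1.02 for Mif deletion at 42 weeks against 0.09 over all genes, and -0.24 at 24 weeks against -0.18 over all genes. For duration it was 1.91 in Apoe-/-Mif-/- mice against 0.12 over all genes, and 0.835 in Apoe-/- mice against -0.12 over all genes. A log2 difference of 1 or more in size was common in the table at large. Members with one numbered 6 of 7 for Mif deletion at 42 weeks (63.1% of all genes) and 5 of 7 at 24 weeks (48.7%), and 6 of 7 for duration in Apoe-/-Mif-/- (58.7%) and 3 of 7 in Apoe-/- mice (57.2%). In the 3 comparisons of groups other than duration in Apoe-/-Mif-/- mice, the groups of all 7 tested members overlapped, beside groups without overlap in 2.2% of all genes for Mif deletion at 42 weeks, 3.84% at 24 weeks and 4.16% for duration in Apoe-/- mice.

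The 3 pairs of p53 targets with enough counts were compared across libraries on the log2(CPM + 1) scale. Mdm2 and Gdf15 gave Pearson's r of 0.522 (permutation p = 0.0396, adjusted 0.119) and Spearman's rho of 0.444 (permutation p = 0.0879, adjusted 0.264) over 16 libraries, and r of 0.525 without the 2 libraries farthest from the median of Mdm2. Cdkn1a and Mdm2 gave r of -0.101 (permutation p = 0.707, adjusted 0.859) and rho of -0.238 (permutation p = 0.374, adjusted 0.561), and r of -0.06 without the 2 farthest libraries. Cdkn1a and Gdf15 gave r of 0.0481 (permutation p = 0.859, adjusted 0.859) and rho of 0 (permutation p = 1, adjusted 1), and r of 0.205 without the 2 farthest libraries. None of the 3 passed after adjustment over the 3 pairs. Once each group's mean was subtracted, with libraries permuted within groups, Cdkn1a and Gdf15 gave the highest values, with r of 0.598 (permutation p = 0.0522, adjusted 0.157) and rho of 0.624 (permutation p = 0.0258, adjusted 0.0774), and r of 0.647 without the 2 farthest libraries. On that scale Mdm2 and Gdf15 gave r of 0.431 (permutation p = 0.184, adjusted 0.276) and rho of 0.412 (permutation p = 0.176, adjusted 0.198), and r of 0.186 without the 2 farthest libraries. Cdkn1a and Mdm2 gave r of 0.288 (permutation p = 0.405, adjusted 0.405) and rho of 0.403 (permutation p = 0.198, adjusted 0.198). None of these passed after adjustment either, and all values of a library share its depth and scaling, whose part was not tested.

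**Figure D4:**
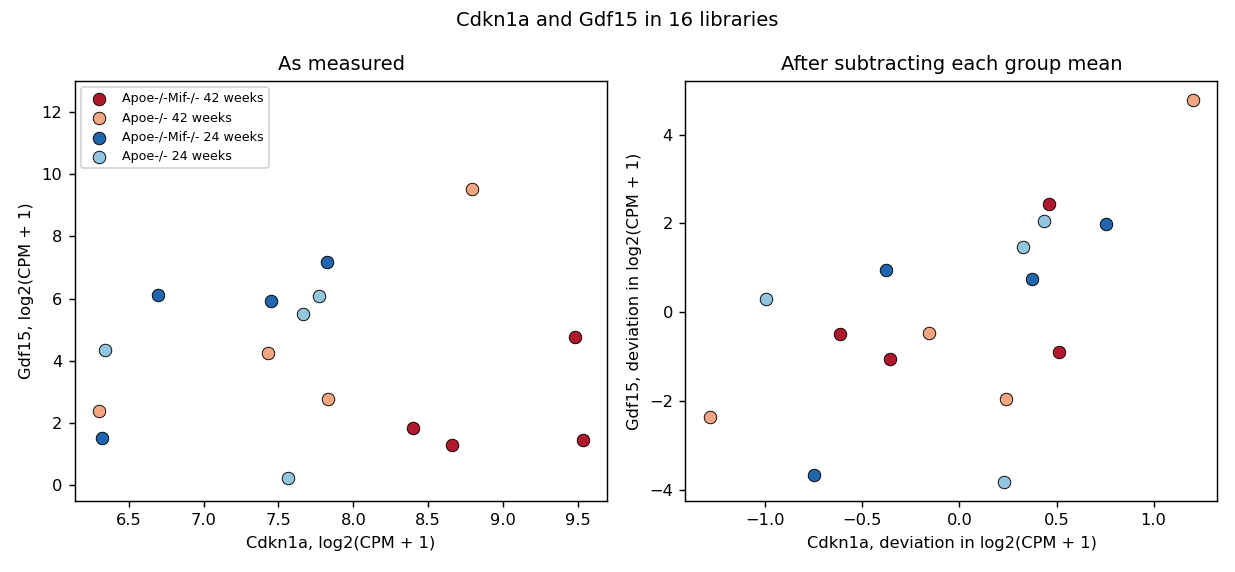
Gdf15 against Cdkn1a in the 16 libraries, both as log2(CPM + 1), as measured and after subtracting each group's mean, with groups by colour. Across all libraries r is 0.0481, and after the group means are subtracted it is 0.598, which did not pass the permutation test within groups.

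By Spearman's rho over the 16 libraries, the genes most like Cdkn1a among 10195 with an established symbol were Cd151, which encodes a tetraspanin (rho 0.841), Fnip1, which encodes a folliculin partner (rho 0.832), and Metrnl, which encodes a secreted protein (rho 0.826). Those most like Trp53 were Rab1a, which encodes a small GTPase of transport from the endoplasmic reticulum (rho 0.897), Myg1 (rho 0.879) and Dlg3, which encodes a scaffold protein (rho 0.859). Those most like Gdf15 were Tmem161b (rho 0.826), Akirin1 (rho 0.809) and Tor3a (rho 0.762). None of these 9 is a gene of the lists used here. The values describe 16 libraries that share groups and depth.

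The wider pathway, 149 genes in 10 lists of which 119 were tested, had no gene that passed edgeR's test in any of the 7 comparisons. At an unadjusted p under 0.05 these genes numbered 27 for Mif deletion at 42 weeks (22.7%, beside 17.3% of all tested genes) and 9 at 24 weeks (7.56%, beside 7.33%). For duration they numbered 18 in Apoe-/-Mif-/- (15.1%, beside 13.1%) and 19 in Apoe-/- mice (16%, beside 12.2%). Of 3 other CDK inhibitor genes 2 were tested. Cdkn1c, which encodes p57, averaged 2.27 ± 0.41 CPM at 42 weeks and 72.6 ± 72.9 CPM at 24 weeks in Apoe-/- mice without overlap (log2 -4.97, edgeR adjusted p = 0.322). In that comparison 4.16% of all tested genes did not overlap. Cdkn2d, which encodes the INK4 protein p19, averaged 9.515 ± 5.495 CPM in Apoe-/-Mif-/- and 165 ± 251 CPM in Apoe-/- mice at 42 weeks (log2 -4.12, edgeR adjusted p = 0.186, and -2.13 without replicate 2 of the Apoe-/- mice). Neither passed edgeR's test after adjustment over all genes.

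Among RB relatives and E2F factors 9 of 12 genes were tested, with medians of -0.81 and -0.93 for Mif deletion at 42 and 24 weeks and of 1.54 and 0.91 for duration in Apoe-/-Mif-/- and in Apoe-/- mice. E2f6, a repressive E2F, averaged 87.5 ± 124 CPM at 42 weeks and 3.83 ± 3.44 CPM at 24 weeks in Apoe-/-Mif-/- mice (log2 4.53, edgeR adjusted p = 0.272, and 2.81 without replicate 1 of the 42-week mice). E2f5 averaged 80.1 ± 159 CPM at 42 weeks and 2.40 ± 2.92 CPM at 24 weeks in Apoe-/- mice, with a log2 difference of 5.01 that became -1.44 without replicate 4 of the 42-week mice (edgeR adjusted p = 0.331 with it). The kinases and cyclins that CDK inhibitors restrain, 7 tested of 8, had medians of -1.17 and 0.00 for Mif deletion at 42 and 24 weeks. Their medians for duration were -0.24 in Apoe-/-Mif-/- and -1.05 in Apoe-/- mice. Cdk2, the kinase that p21 inhibits, averaged 0.772 ± 0.533 CPM at 42 weeks and 24.0 ± 20.9 CPM at 24 weeks in Apoe-/-Mif-/- mice, groups that did not overlap (log2 -5.03, edgeR adjusted p = 0.264). In that comparison 4.38% of all tested genes did not overlap. Each 42-week artery had 1 or 2 Cdk2 counts, under the floor, which in replicate 2 (4.18 CPM) lies above the lowest 24-week artery (1.85 CPM), so at this depth the separation of the groups and the size of the difference are uncertain. Ccne1, which encodes cyclin E1, averaged 0.544 ± 0.437 CPM in Apoe-/-Mif-/- and 28.3 ± 55.6 CPM in Apoe-/- mice at 42 weeks, a log2 difference of -5.46 that became 0.51 without replicate 1 of the Apoe-/- mice (edgeR adjusted p = 0.207 with it). The Apoe-/-Mif-/- arteries had 0 to 3 Ccne1 counts each, at or under the floor.

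Of 12 regulators of p53, 9 were tested, and 4 lay higher under Mif deletion at 42 weeks, 6 at 24 weeks, 3 under longer diet in Apoe-/-Mif-/- and 5 in Apoe-/- mice. Chek2, the checkpoint kinase that phosphorylates p53, averaged 41.3 ± 81.8 CPM in Apoe-/-Mif-/- and 1.32 ± 0.93 CPM in Apoe-/- mice at 42 weeks (log2 5.04, edgeR adjusted p = 0.225), a difference that became -1.60 without replicate 3 of the Apoe-/-Mif-/- mice. Trp53bp1, which binds damaged chromatin, averaged 60.1 ± 54.4 CPM in Apoe-/-Mif-/- and 8.05 ± 12.3 CPM in Apoe-/- mice at 24 weeks (log2 2.88, edgeR adjusted p = 0.7735, and 2.01 to 4.90 with 1 library left out). Of 25 other p53 targets 21 were tested, and 6 lay higher under Mif deletion at 42 weeks, 9 at 24 weeks, 7 under longer diet in Apoe-/-Mif-/- and 12 in Apoe-/- mice. Their medians were -1.44, -0.41, -0.97 and 0.05 in that order, against 0.09, -0.18, 0.12 and -0.12 over all genes. Xpc, a sensor of DNA lesions, averaged 0.385 ± 0.397 CPM in Apoe-/-Mif-/- and 74.05 ± 92.9 CPM in Apoe-/- mice at 24 weeks, groups that did not overlap (log2 -7.445, edgeR adjusted p = 0.2255; 3.84% of tested genes did not overlap). The Apoe-/-Mif-/- arteries had 0 to 2 Xpc counts each, under the floor. In replicate 1 that floor (1.965 CPM) lies above the lowest Apoe-/- artery (1.85 CPM). At this depth the separation of the groups and the size of the difference are therefore uncertain. Plk2, a stress-induced kinase, averaged 4.05 ± 1.79 CPM in Apoe-/-Mif-/- and 120 ± 129 CPM in Apoe-/- mice at 42 weeks (log2 -4.85, edgeR adjusted p = 0.176).

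Among 10 genes of the nuclear lamina 8 were tested, and their medians were 0.17 and -0.285 for Mif deletion at 42 and 24 weeks and 0.29 and -0.385 for duration in Apoe-/-Mif-/- and in Apoe-/- mice. Lmnb2, the other B-type lamin gene, averaged 1.99 ± 1.45 CPM in Apoe-/-Mif-/- and 14.3 ± 20.2 CPM in Apoe-/- mice at 24 weeks (log2 -2.82, edgeR adjusted p = 0.830, and -1.19 without replicate 3 of the Apoe-/- mice). Sun2, which ties the lamina to the cytoskeleton, averaged 68.55 ± 35.8 CPM at 42 weeks and 195 ± 130 CPM at 24 weeks in Apoe-/- mice (log2 -1.51, edgeR adjusted p = 0.594, and -0.998 without replicate 4 of the 24-week mice). Both groups overlapped for each of these genes, and neither passed the test.

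Secreted factors of senescent cells numbered 40 in the list, of which 30 were tested. Under Mif deletion 18 lay higher at 42 weeks and 23 at 24 weeks, and under longer diet 13 lay higher in Apoe-/-Mif-/- and 16 in Apoe-/- mice. The medians were 0.17, 0.62, -0.23 and 0.36 in that order. Many of these genes are also made by macrophages, whose 16 markers had medians of -0.70, 0.84, 0.255 and 1.44 in the same order. The part of macrophages in the list as a whole was not tested. Mmp12, an elastase of macrophages, averaged 1443 ± 805 CPM at 42 weeks and 332 ± 228 CPM at 24 weeks in Apoe-/- mice, groups that did not overlap (log2 2.12, edgeR adjusted p = 0.322, DESeq2 adjusted p = 0.0486). In a model that held the macrophage score the log2 difference of Mmp12 was 1.56 (edgeR adjusted p = 0.648). Icam1, an adhesion molecule of inflamed endothelium, averaged 5.905 ± 5.04 CPM at 42 weeks and 123 ± 95.6 CPM at 24 weeks in Apoe-/-Mif-/- mice, also without overlap (log2 -4.355, edgeR adjusted p = 0.238). By duration, 2 of the 30 genes did not overlap in Apoe-/- mice (4.16% of all tested genes). In Apoe-/-Mif-/- mice 3 of the 30 did not (4.38%). Of 10 stress genes known beside Gdf15, 8 were tested, with medians of 0.49, 0.34, 0.07 and 0.20 in the order above. Trib3, which dampens the ATF4 response, averaged 6.88 ± 3.53 CPM in Apoe-/-Mif-/- and 189 ± 312 CPM in Apoe-/- mice at 42 weeks (log2 -4.775, edgeR adjusted p = 0.176, and -2.38 without replicate 2 of the Apoe-/- mice). Chac1, which breaks down glutathione, averaged 0.304 ± 0.359 CPM at 42 weeks and 14.3 ± 13.4 CPM at 24 weeks in Apoe-/- mice (log2 -5.28, edgeR adjusted p = 0.322), with 0 to 2 counts in each 42-week artery. Of the list genes named so far DESeq2 called E2f6 (adjusted p = 0.0265) and Icam1 (0.00466) for duration in Apoe-/-Mif-/- mice, beside 5.06% of all genes. For duration in Apoe-/- mice it called Cdkn1c (0.0413) and Mmp12, beside 3.36%. It called Xpc (0.00488) for Mif deletion at 24 weeks, beside 2.37%, and Plk2 (0.00666) and Trib3 (0.0355) at 42 weeks, beside 7.51%. These genes were picked for a small p in edgeR's test of the same counts, so the calls are not independent of that choice.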

How the data were processed

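Whole-vessel RNA of 16 arteries was made into libraries by Smart-seq2 from 1 ng of RNA, without molecular identifiers or strand, per the labels' protocols. Reads were trimmed with Trim Galore 0.6.4 and cutadapt 1.18, checked with FastQC 0.11.5 and aligned to GRCm39 with STAR 2.5.2b, per the submitters' processing notes; the counter and annotation are not given in the sources used here. The authors deposited raw counts per gene and a table of variance-stabilised values on a log2 scale (9578 genes), which served as an alternative. A row without a gene name (at most 0.00257% of a library) and 2 reporter rows were left out. Counts were fitted with edgeR 4.0.16 (TMM, filterByExpr with a minimum count of 10, quasi-likelihood test, 16 libraries in 1 fit, Benjamini-Hochberg over 10634 genes). Alternatives used limma 3.58.1, DESeq2 1.42.0, RLE factors, no filter, marker scores as covariates and each library left out in turn. Correlations used log2(CPM + 1) and 2-sided permutation tests with 100000 resamples; Cdkn2a and Cdkn2b had too few libraries with counts. Named list genes are up to 2 per list with the smallest p in any comparison of 2 groups; genes most like a member are the 3 with the highest rho. Gene lengths come from GENCODE M21 on GRCm38, and promoters from RefSeq on GRCm38.p6. Members and lists were chosen with earlier results of these data known. The labels give each library a mouse of its own, so p-values measure the spread between libraries. Differences between mice and those from library preparation cannot be told apart in it.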

Additional observations from a re-analysis of the deposited data

Results flagged for a closer look

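In groups of 4, a library was set apart where its gap to the nearest of the others passed Dixon's 95% critical value, as a share of the group's range on the log2(CPM + 1) scale. This happened in 7 of 33 combinations of group and gene. For normally distributed values chance gives about 1 in 20. The share over all tested genes was not computed, and counts of the whole table were uneven between libraries. The 7 are therefore not shown to be more than other genes of this assay would give. In 2 of the 7, those of Cdkn2a and of Cdkn2b at 42 weeks, the other 3 libraries were at 0, so the value is reached by construction. Cdkn1a was low in Apoe-/- 24 weeks replicate 4, at 80.02 CPM against 188 to 217 CPM in the other 3. Mdm2 was low in Apoe-/-Mif-/- 24 weeks replicate 4, at 5.551 CPM against 105 to 113 CPM, and high in Apoe-/-Mif-/- 42 weeks replicate 4, at 40.85 CPM against 2.79 to 4.62 CPM. Gdf15 was high in Apoe-/-Mif-/- 42 weeks replicate 2, at 26.46 CPM against 1.44 to 2.57 CPM. Cdkn2b was high in Apoe-/- 24 weeks replicate 3, at 61.62 CPM against 0 to 1.01 CPM, and stood at 2.093 CPM in Apoe-/- 42 weeks replicate 4 against 0 in the other 3. Cdkn2a stood at 0.4626 CPM, 1 count, in Apoe-/-Mif-/- 24 weeks replicate 4 against 0 in the other 3. These 2 values of Cdkn2a and of Cdkn2b at 42 weeks are 1 and 3 counts.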

How the results depend on the processing

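Of 1608 recomputed values of single genes, 1536 kept their direction and side of the threshold, 57 turned their sign (43 of them among 1102 values with 1 library left out) and 15 passed the threshold only under the alternative. None of these gene results had passed edgeR's test on all 16 libraries, so no turned value could have been a passing one. Values that kept their side of the threshold stayed uncalled. DESeq2 gave 2 calls among the 7 genes for duration in Apoe-/-Mif-/- mice and 3 for duration averaged, where edgeR gave 0; leaving out any 1 library left the count at 0 in all 7 comparisons. The cause of these differences was not tested. Trp53 turned with the white adipocyte covariate (-1.03 for Mif deletion at 24 weeks, -0.147 at 42 weeks, -0.589 averaged, 0.423 for duration in Apoe-/-Mif-/-), with the macrophage covariate (-1.46 at 24 weeks, -0.278 averaged), with voom (-0.155 at 42 weeks, -0.527 for the interaction) and with the variance-stabilised values (-0.28 for the interaction). Cdkn2c for Mif deletion averaged became 0.111 and 0.0492 with the adipocyte and macrophage covariates, Rb1 for duration in Apoe-/- became -0.352 with the variance-stabilised values, and Gdf15 for duration averaged became 0.623 with RLE factors and 0.642 with DESeq2. RLE in place of TMM moved the median of all genes by 0.41 for duration in Apoe-/-Mif-/-, 0.30 in Apoe-/-, 0.37 averaged, 0.19 for Mif deletion at 42 weeks, 0.07 at 24 weeks, 0.13 averaged and 0.12 for the interaction. Subtracting group means turned r of Cdkn1a and Mdm2 to 0.288.

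With 1 library left out, signs turned for Mif deletion at 24 weeks in Trp53 (-0.444 to 0.942); at 42 weeks in Cdkn2c (-1.03 to 3.43), Trp53 (-1.91 to 1.24), Rb1 (-5.38 to 3.69), Ccne1 (-5.87 to 0.507) and Chek2 (-1.60 to 5.29); averaged in Cdkn2c (-1.55 to 0.68), Trp53 (-0.851 to 0.732), Mdm2 (-0.726 to 0.756) and Gdf15 (-2.82 to 0.387). They turned for duration in Apoe-/-Mif-/- in Trp53 (-2.61 to 0.434); in Apoe-/- in Cdkn1a (-0.0915 to 0.83), Cdkn2c (-0.649 to 1.37), Trp53 (-1.26 to 0.244), Rb1 (-3.80 to 2.48), Gdf15 (-1.79 to 3.16) and E2f5 (-1.44 to 5.66); averaged in Trp53 (-1.55 to 0.0251) and Gdf15 (-2.41 to 0.0218). The interaction turned in Trp53 (-2.12 to 1.02) and Lmnb1 (-1.72 to 2.00). No paired analysis was possible because the labels give a different mouse for each library and no shared replicate numbers. Cdkn2a, Cdkn2b, Rb1 and Lmnb1 had the fewest counts of the 9 genes, with 1 to 745 in all 16 libraries together, and the part of depth in this was not tested.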

Other observations

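Regulators of the INK4 locus, 9 genes that were all tested, and 20 proliferation genes, of which 16 were tested, had no gene called by edgeR in any comparison. Kdm6b, a demethylase that removes the repressive H3K27 mark, averaged 346 ± 658 CPM in Apoe-/-Mif-/- and 2.04 ± 0.5595 CPM in Apoe-/- mice at 42 weeks without overlap (log2 7.39, edgeR adjusted p = 0.176); 2.2% of tested genes did not overlap there. With only these 2 groups in the fit, or with no filter, edgeR called it (adjusted p = 0.00974 and 0.00673). limma gave 3.74 with voom and 3.73 on the variance-stabilised values and did not call it (adjusted p = 0.851 and 0.445), and DESeq2 gave no adjusted p. Replicate 2 of the Apoe-/-Mif-/- mice had 1333 CPM, and without it the edgeR difference was 3.19. Ezh2, the methylase that sets the same mark, averaged 0.468 ± 0.657 CPM at 42 weeks and 19.0 ± 29.8 CPM at 24 weeks in Apoe-/-Mif-/- mice (log2 -5.54, edgeR adjusted p = 0.266, and -3.25 without replicate 2 of the 24-week mice). Each 42-week artery had 0 to 2 Ezh2 counts, under the floor, so the size of this difference is uncertain.

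The proliferation genes had medians of 2.79 and -0.65 for Mif deletion at 42 and 24 weeks, and of -0.64 and -2.29 for duration in Apoe-/-Mif-/- and in Apoe-/- mice, against 0.09, -0.18, 0.12 and -0.12 over all genes. Of the 16, 9, 6, 6 and 4 lay above 0 in that order. Mcm6, a subunit of the replicative helicase, averaged 196.5 ± 380 CPM in Apoe-/-Mif-/- and 5.62 ± 7.60 CPM in Apoe-/- mice at 42 weeks (log2 5.05, edgeR adjusted p = 0.176), a difference that became 0.0915 without replicate 1 of the Apoe-/-Mif-/- mice. Pcna, the sliding clamp of DNA polymerase, averaged 89.65 ± 82.3 CPM at 42 weeks and 3.73 ± 2.51 CPM at 24 weeks in Apoe-/- mice (log2 4.555, edgeR adjusted p = 0.322, DESeq2 adjusted p = 0.00653). DESeq2 called 3.36% of all genes there, and Pcna too was picked for a small p in the same counts. Its groups overlapped, with 1.82 CPM in replicate 3 at 42 weeks, and it was among the 4 of 16 genes above 0.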
